A study of Homo sapiens with 6 samples.

Results

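The genes described are 10 members of the S100 family of small calcium-binding proteins, S100A4, S100A6, S100A8, S100A9, S100A10, S100A11, S100A12, S100A13, S100P and S100Z. They were found by matching these symbols to the Ensembl IDs of a table of 61806 gene IDs, and 8 of the 10 had enough counts to be tested. RNA had been sequenced from U937, an established human cell line with features of monocytes, given as AML in the labels. There were 3 libraries from cells given the vehicle DMSO and 3 from cells given ethacrynic acid, a loop diuretic that reacts with thiols, in a study of myeloid differentiation. All 6 libraries are titled day 3, while the treatment lasted 2 days by the protocol text, and the dose is not given in the sources used here. Whether replicates came from separate cultures is not stated. The p-values below therefore rest on the spread of 3 libraries per group, and that spread may be technical.

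S100 proteins bind calcium through a pair of EF-hand loops, mostly work as dimers, and have no enzyme activity of their own. Inside cells they bind targets such as annexins and myosin. Several are also released and signal through the receptor RAGE (gene AGER) or through TLR4. In the myeloid lineage S100A8 and S100A9 form calprotectin, the most abundant cytosolic protein pair of neutrophils and a product of maturing monocytes. S100A12 is a related product of granulocytes.

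The libraries held 57516146 to 68128543 counts. The myeloid genes ELANE (neutrophil elastase), SPI1 (the transcription factor PU.1), CD33 and PTPRC (CD45) were present in every library, with control means of 1222, 139, 92.0 and 208 CPM (counts per 1000000 of library size, scaled by TMM). The monocyte coreceptor gene CD14 was low, at 0.232 ± 0.109 CPM with DMSO and 0.939 ± 0.0723 CPM with ethacrynic acid (SD, n = 3 each). A pair of libraries stood apart in ways that touch short or epithelial genes such as the S100 family. In ethacrynic acid replicate 3 the summed level of 20 epithelial marker genes (other than S100 genes) was 561 CPM, against 59.4 to 81.4 CPM in the control libraries and 69.2 and 74.5 CPM in the other ethacrynic acid libraries. KRT14, KRT17 and KRT20 of this list had 0 counts in all 6 libraries, while 13 of the 15 genes that could be compared were over 5-fold higher in replicate 3 than in replicates 1 and 2. In ethacrynic acid replicate 1 short genes were high. The 81 protein-coding genes with under 1000 bases of exon and a mean of at least 5 CPM were compared. Their median log2 level was 0.66 above the control mean there, against 0.15 and 0.03 in replicates 2 and 3. The members are therefore given with and without these libraries. The libraries are bulk samples, in which fewer cells of a type and less RNA per cell cannot be told apart.

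**Figure D1:**
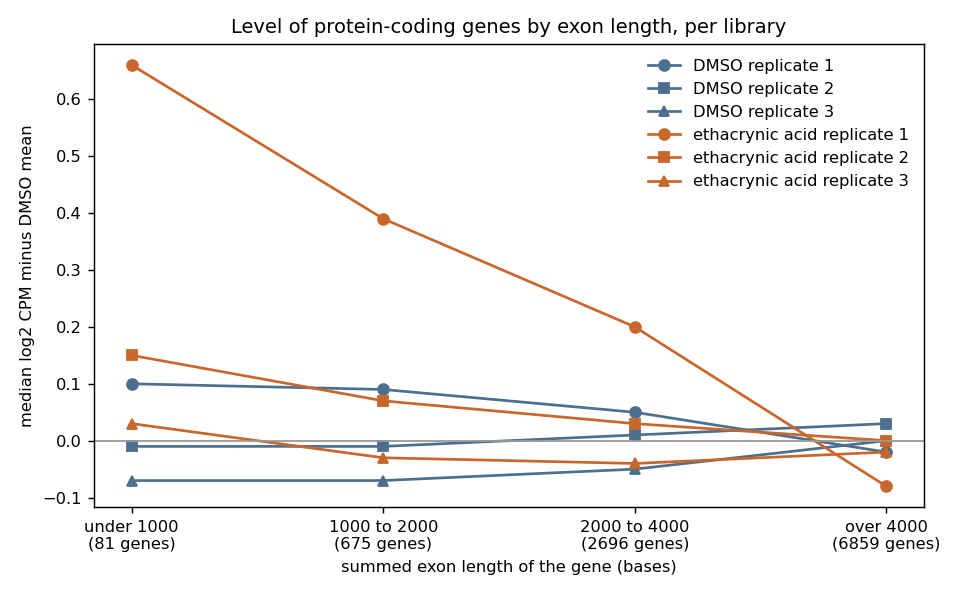
Median log2 CPM of protein-coding genes (mean of at least 5 CPM) minus the DMSO mean, by summed exon length in bases, for each of the 6 libraries. Ethacrynic acid replicate 1 falls from 0.66 for the shortest genes to -0.08 for the longest, and the other 5 libraries stay between -0.07 and 0.15.

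S100A9 rose with ethacrynic acid, and it was the only 1 of the 8 tested members to pass the edgeR quasi-likelihood test over all genes (Benjamini-Hochberg adjusted p under 0.05). Of the 19611 tested genes 0.229% were called higher and 0.0357% lower, 0.265% in all. In both groups the family's transcripts were dominated by S100A11, S100A4, S100A6 and S100P. These 4 and S100A10 stood higher in every ethacrynic acid library than in any control library, by 1.39-fold to 1.73-fold, without passing. S100A8 and S100A12, the usual companions of S100A9, were low, at 59 and 16 counts or fewer in each library, without a call for S100A8 and too few counts to test S100A12. S100Z had none, and S100A13 was the only tested member with a negative log2 fold change.

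S100A9 (ENSG00000163220, chromosome 1, 153357854 to 153361027, plus strand, GENCODE 29 on GRCh38) encodes the larger calprotectin subunit. It had 121, 79 and 38 counts in DMSO replicates 1, 2 and 3 and 1026, 518 and 620 counts in the ethacrynic acid replicates. In CPM these were 1.78, 1.14 and 0.530 with DMSO and 16.8, 9.22 and 9.64 with ethacrynic acid. The lowest ethacrynic acid library was thus above the highest control library, and the control libraries also differed among themselves. The group means were 1.15 ± 0.625 and 11.9 ± 4.26 CPM (SD, n = 3 each), so that S100A9 rose by 3.37 ± 0.46 on the log2 scale (SE, adjusted p = 0.041). Without ethacrynic acid replicate 3, the library with high epithelial genes, it was 3.49 ± 0.45 (adjusted p = 0.014). Without ethacrynic acid replicate 1, the library with high short genes, it was 3.04 ± 0.44 (adjusted p = 0.057), and the call ended. It also ended without control replicate 1, 2 or 3 or ethacrynic acid replicate 2, with adjusted p values of up to 0.23, while the log2 fold change stayed between 3.02 and 3.83 in these 6 fits. DESeq2 also called S100A9 (adjusted p = 1.6e-13).

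**Figure D2:**
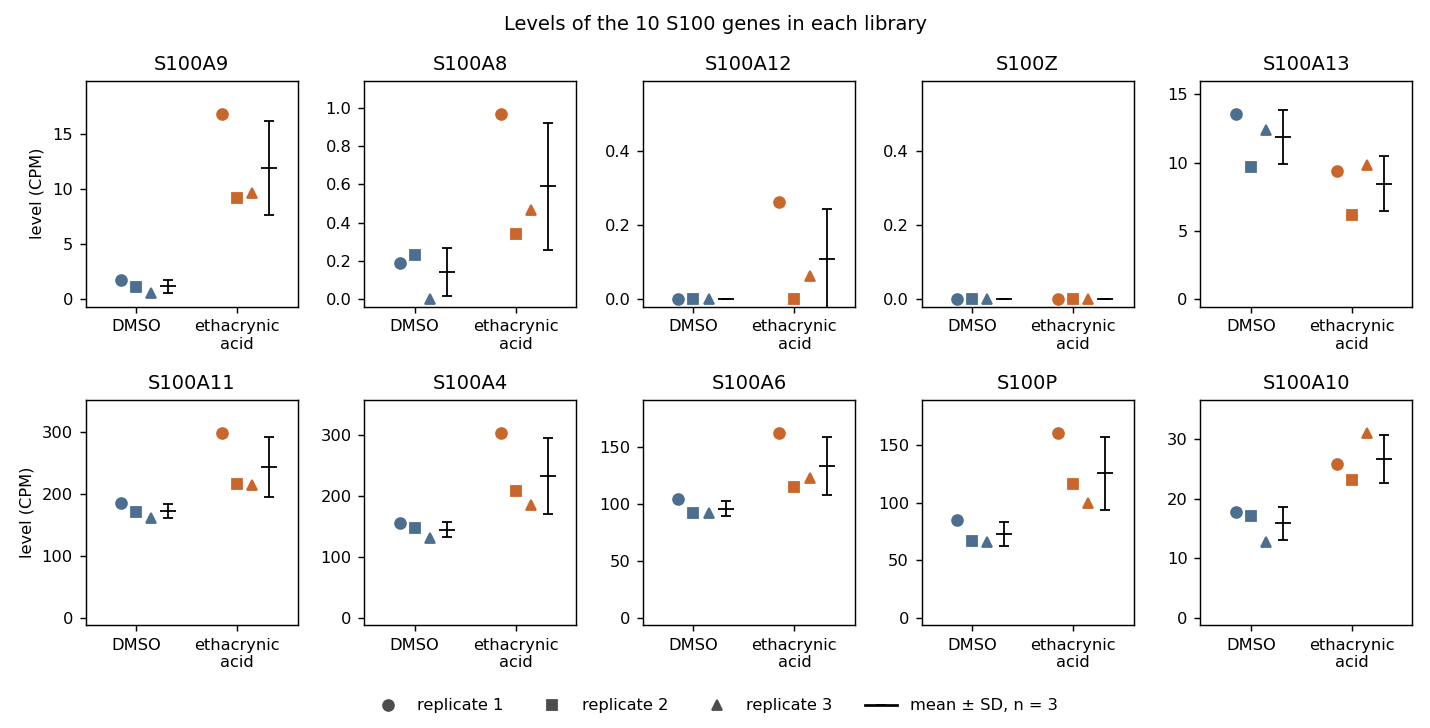
Level in CPM of each of the 10 S100 genes in the 3 DMSO and 3 ethacrynic acid libraries, on linear axes that differ between panels, with the mean ± SD (n = 3) beside the points. S100A9 goes from at most 1.78 CPM to at least 9.22 CPM, S100A8 stays under 1 CPM, and ethacrynic acid replicate 1 is the highest library for 7 of the 9 members with any counts.

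S100A8 (ENSG00000143546, chromosome 1, 153390032 to 153391188, minus strand) encodes the other calprotectin subunit and lies close to S100A9. It had 13, 16 and 0 counts with DMSO and 59, 19 and 30 counts with ethacrynic acid. Every ethacrynic acid library was above every control library, but the lowest, at 19 counts, was only 3 counts above the highest control library. Its log2 fold change of 2.06 ± 0.98 (SE) did not pass (adjusted p = 0.49), with values of 2.19 ± 1.01 when ethacrynic acid replicate 3 was left out and 1.52 ± 1.12 when replicate 1 was. DESeq2 gave it no adjusted p. S100A9 was the more abundant calprotectin transcript per length of exon. The ratios below depend on annotated exon lengths of 577 bases for S100A9 and 1006 for S100A8, each covering the exons of all annotated transcripts. Over the summed counts of a group, the level of S100A9 per kilobase was 14.3 times that of S100A8 with DMSO (238 and 29 counts) and 34.9 times with ethacrynic acid (2164 and 108 counts). By library this ratio was 16.2 and 8.61 in DMSO replicates 1 and 2 and 30.3, 47.5 and 36.0 in the ethacrynic acid replicates. The ratios of DMSO replicates 1 and 2 were below those of the ethacrynic acid libraries. DMSO replicate 3 had 38 S100A9 counts and 0 S100A8 counts and so gave no ratio. Whether the groups overlap is therefore not known. The ratios rest on few S100A8 counts, and the difference was not tested.

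S100A12 (ENSG00000163221, chromosome 1, 153373706 to 153375649, minus strand) encodes calgranulin C, an S100 protein of granulocytes, and lies between S100A9 and S100A8. It had 0 counts in each DMSO library and 16, 0 and 4 counts with ethacrynic acid, too few to test. A count of 0 allows a level of up to 0.0418 to 0.0441 CPM in the control libraries (3 counts of the scaled library size, counting error only). Ethacrynic acid replicate 1, with its 16 counts, reached 0.262 CPM. S100Z (ENSG00000171643, chromosome 5, 76850001 to 76921650, plus strand), a family member known from spleen and leukocytes, had 0 counts in all 6 libraries, which allows up to 0.0534 CPM in the shallowest. The table holds an excess of genes with exactly 4 counts (1213 to 1332 per library, against 651 to 762 with 3 counts), so such low values may stand for fewer fragments.

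The bases just upstream of the starts of S100A9, S100A8 and S100Z are shown because the first rose, the second is its partner and was low in both groups, and the third was listed at 0. Each sequence is the 250 bases before a RefSeq start (GRCh38.p14), on the strand of the gene. For S100A8 the outermost of 3 RefSeq starts was taken, whose window holds no annotated exon. The windows of its other starts are not shown and hold further motif matches. Capitals mark matches to the motifs searched.

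S100A9, chr1:153357604-153357853, plus strand: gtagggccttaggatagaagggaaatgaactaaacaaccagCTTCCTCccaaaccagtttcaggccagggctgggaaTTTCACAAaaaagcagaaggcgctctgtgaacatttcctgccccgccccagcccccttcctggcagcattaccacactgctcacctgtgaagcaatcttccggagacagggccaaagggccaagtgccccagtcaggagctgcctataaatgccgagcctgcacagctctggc
S100A8, chr1:153391189-153391438, minus strand: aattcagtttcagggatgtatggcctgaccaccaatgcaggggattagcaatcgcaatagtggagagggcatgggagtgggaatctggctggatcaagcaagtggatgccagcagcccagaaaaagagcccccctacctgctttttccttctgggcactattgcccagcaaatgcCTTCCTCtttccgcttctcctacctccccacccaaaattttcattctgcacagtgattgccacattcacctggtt
S100Z, chr5:76874373-76874622, plus strand: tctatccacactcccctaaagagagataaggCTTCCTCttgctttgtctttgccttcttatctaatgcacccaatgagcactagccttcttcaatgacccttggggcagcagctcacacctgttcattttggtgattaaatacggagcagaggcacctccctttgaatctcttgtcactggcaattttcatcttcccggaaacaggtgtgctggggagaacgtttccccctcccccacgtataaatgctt

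The motifs were TTNNGNAA (C/EBP), GAGGAAG (PU.1), TGACTCA (AP-1) and TGACNNNGC (the core of the antioxidant response element), each sought on both strands. A TGACTCA followed by GC would match the last as well. No match of a motif overlapped a match of another in the members' windows. All 10 members had at least 1 window in the RefSeq table, 14 in all. The PU.1 letters, read as CTTCCTC on the opposite strand, lie 209 bases before the S100A9 start, 75 bases before the S100A8 start shown and 219 bases before the S100Z start. These 3 were the only members with a match, in 4 of the 14 windows, and 11.2% of all 35116 windows of this length hold the motif. The windows of S100A8 overlap, and its PU.1 letters were counted again 190 bases before another of its starts. The C/EBP letters were found in 8 of the 14 windows and 7 of the 10 members, S100A6, S100A8, S100A9, S100A11, S100A12, S100A13 and S100P, against 33.2% of all windows. Those of S100A8 lie only in its windows not shown. These windows share the match TTGAGAAA, counted 214 bases before a start and 117 bases before another. The antioxidant element core was in 1 window, of S100A13, and in 10.9% of all windows. No member had the AP-1 letters, which 4.2% of all windows hold. Such matches describe letters only.

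The abundant members were compared per kilobase of exon, because longer transcripts give more counts. With DMSO the order of levels was S100A11 at 254 ± 17.6, S100A4 at 141 ± 12.2, S100A6 at 98.5 ± 7.09 and S100P at 56.7 ± 8.29 CPM per kilobase (SD, n = 3). S100A10 followed at 10.3 ± 1.80, S100A13 at 5.36 ± 0.899, S100A9 at 2.00 ± 1.08 and S100A8 at 0.140 ± 0.123 CPM per kilobase. Each of these neighbours differed beyond the range of its 3 libraries. The exon length used covers the exons of all annotated transcripts of a gene. It can exceed the length of the transcript present, so the order depends on the annotation, and other lengths were not tried. With ethacrynic acid S100A9 moved above S100A13, to 20.6 ± 7.39 CPM per kilobase, and overlapped S100A10 at 17.3 ± 2.60. S100A6, at 137 ± 26.2, and S100P, at 98.2 ± 24.7 CPM per kilobase, also overlapped there. The 4 leading members made up 95.5% to 96.2% of the summed level of all S100 genes per kilobase in the control libraries and 92.1% to 94.6% in the ethacrynic acid libraries. S100A9 made up 0.173% to 0.494% and 2.07% to 2.68%. The summed level was 574 ± 47.3 CPM per kilobase with DMSO and 873 ± 186 with ethacrynic acid.

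S100A4 (ENSG00000196154, chromosome 1, 153543613 to 153550136, minus strand) encodes a protein that binds non-muscle myosin and is linked to cell motility. Its levels were 155, 147 and 131 CPM with DMSO and 303, 209 and 186 CPM with ethacrynic acid. The groups did not overlap, and ethacrynic acid replicate 1 was well above the other two. The log2 fold change was 0.69 ± 0.18 (SE, adjusted p = 0.24). Leaving out ethacrynic acid replicate 3 gave 0.82 ± 0.16 (adjusted p = 0.069), and leaving out replicate 1 gave 0.46 ± 0.10 (adjusted p = 0.18). DESeq2 called the gene (adjusted p = 0.0099).

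S100P (ENSG00000163993, chromosome 4, 6693069 to 6697170, plus strand), first isolated from placenta, encodes a ligand of RAGE that also binds ezrin and IQGAP1. Its levels were 84.8, 66.6 and 66.2 CPM with DMSO and 161, 116 and 99.9 CPM with ethacrynic acid. The groups did not overlap, with the same ethacrynic acid library at the top. The log2 fold change was 0.79 ± 0.19 (SE, adjusted p = 0.20), and it was 0.93 ± 0.16 without ethacrynic acid replicate 3 (adjusted p = 0.052) and 0.58 ± 0.13 without replicate 1 (adjusted p = 0.19). DESeq2 called it (adjusted p = 0.0027).

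S100A11 (ENSG00000163191, chromosome 1, 152032506 to 152047907, minus strand) encodes a partner of annexin A1 in membrane repair and endosome traffic. Its levels were 185, 171 and 162 CPM with DMSO and 299, 216 and 214 CPM with ethacrynic acid. S100A6 (ENSG00000197956, chromosome 1, 153534599 to 153536244, minus strand) encodes calcyclin, which binds the protein CACYBP. Its levels were 104, 91.5 and 91.8 CPM with DMSO and 162, 115 and 123 CPM with ethacrynic acid. Neither gene's groups overlapped, and ethacrynic acid replicate 1 was again the highest. The log2 fold changes were 0.49 ± 0.14 for S100A11 (SE, adjusted p = 0.30) and 0.48 ± 0.14 for S100A6 (adjusted p = 0.31). Both were 0.32 without that library, with adjusted p values of 0.21 and 0.23. Leaving out ethacrynic acid replicate 3 instead gave 0.57 and 0.52, with adjusted p values of 0.14 and 0.17. DESeq2 called both (adjusted p = 0.039 and 0.048). The 8 named pseudogenes of S100A11 had no counts in any library, so a division of its reads with them is not visible in the table. An antisense transcript shares 23 bases with the exons of S100A6, and without a stated strand setting its reads could not be told apart.

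S100A10 (ENSG00000197747, chromosome 1, 151982915 to 151994390, minus strand) encodes p11, the S100 protein that forms a complex with annexin A2 and binds plasminogen at the cell surface. Its levels were 17.7, 17.1 and 12.7 CPM with DMSO and 25.8, 23.2 and 31.1 CPM with ethacrynic acid. The groups did not overlap, and here ethacrynic acid replicate 3, the library with high epithelial genes, was the highest. The log2 fold change of 0.75 ± 0.17 (SE, adjusted p = 0.19) was 0.62 ± 0.17 without that library (adjusted p = 0.16). It was 0.61 to 0.84 over the 6 fits that each left out a library. An epithelial part in its level was not tested. DESeq2 called the gene (adjusted p = 0.0032). ANXA2, which encodes annexin A2, was at 172 ± 40.4 and 342 ± 48.2 CPM (SD, n = 3 each), a difference of 1.00 ± 0.19 on the log2 scale (SE, adjusted p = 0.12). It passed when ethacrynic acid replicate 3 was left out (adjusted p = 0.041) and in DESeq2 (adjusted p = 3.1e-05).

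S100A13 (ENSG00000189171, chromosome 1, 153618787 to 153631360, minus strand) encodes a protein that takes part in the unconventional release of FGF1 and interleukin-1 alpha. Its levels were 13.5, 9.67 and 12.4 CPM with DMSO and 9.42, 6.14 and 9.87 CPM with ethacrynic acid. The groups overlapped, since ethacrynic acid replicate 3 was above the lowest control library. The log2 fold change was -0.49 ± 0.22 (SE, adjusted p = 0.46), and it was negative in each of the 6 fits that left out a library (-0.62 to -0.30). DESeq2 gave an adjusted p of 0.30. Exons of S100A13 overlap the noncoding AL162258.1 by 536 bases on the same strand and S100A1 by 235 bases on the other, so its counting is uncertain. The cargo genes FGF1 and IL1A were at 0 counts and at 32 counts or fewer in each library.

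**Figure D3:**
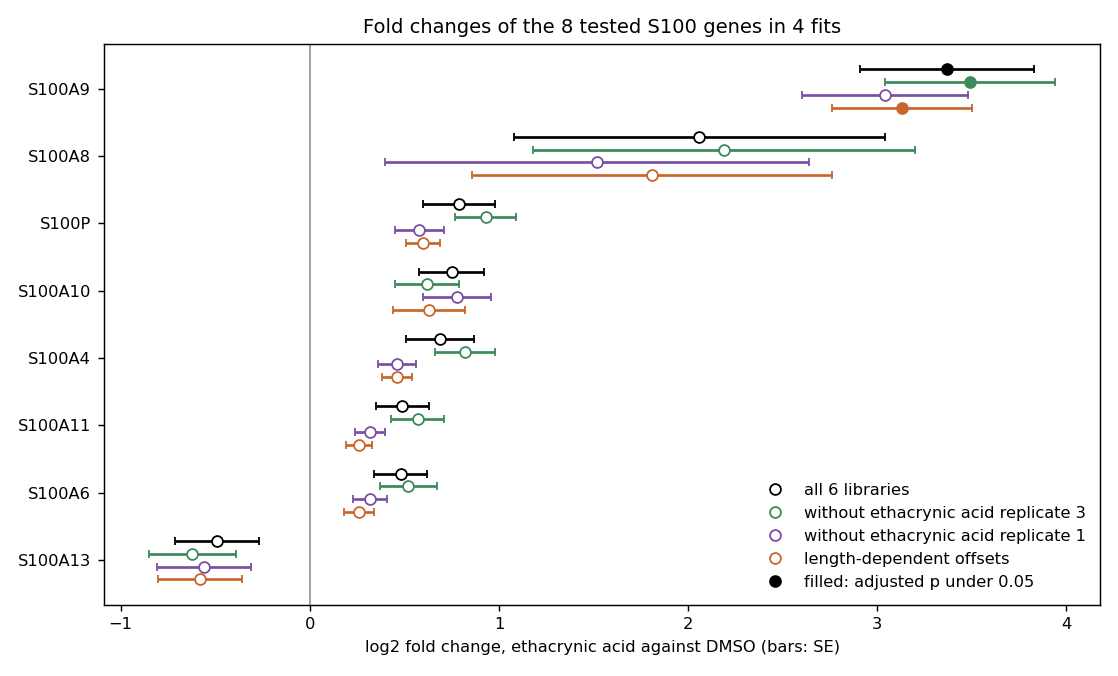
Log2 fold change (point) with its SE (bar) for the 8 tested S100 genes in 4 edgeR fits, filled where the adjusted p was under 0.05. S100A9 is at 3.04 to 3.49 and S100A13 is below 0 in all 4 fits, and S100A4, S100A6, S100A11 and S100P are lower without ethacrynic acid replicate 1 or with length-dependent offsets.

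Over the family, 7 of the 8 tested members had all ethacrynic acid libraries above all control libraries, against 8.64% of all tested genes, and none had them all below, against 8.99%. At an unadjusted p under 0.05 stood 6 of the 8, against 11.1% of all tested genes. The median log2 fold change of the 8 was 0.72, against 0.00 over all tested genes. DESeq2 called 6 of the 8 as higher, S100A4, S100A6, S100A9, S100A10, S100A11 and S100P, where it called 2.05% of all tested genes as higher. Without ethacrynic acid replicate 3 S100A9 alone was called, with 0.592% of all genes called higher. S100A9 was also the member called with RLE, upper-quartile or total count scaling (0.235%, 0.214% and 0.214% of all genes called higher), limma-voom (0.229%), a stricter filter (0.736%) and counts divided by 4 (0.382%). No member was called with no filter (0.0424%), at an adjusted p under 0.01 (0.0459%), or without control replicate 1, 2 or 3 (0.0196%, 0.0343% and 0.0295%) or ethacrynic acid replicate 1 or 2 (0.253% and 0.0293%).

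The S100 genes are short, and short genes as a class stood higher with ethacrynic acid, mostly in replicate 1. Of the protein-coding genes with under 1000 bases of exon and a mean of at least 5 CPM, 29.6% had all ethacrynic acid libraries above all control libraries. Their median log2 fold change was 0.28. For those of 1000 to 2000 bases these were 16.4% and 0.15. Without ethacrynic acid replicate 1 the medians were 0.09 and 0.02. The exon lengths of the members that were higher are 577 bases for S100A9, 680 for S100A11, 971 for S100A6, 1006 for S100A8, 1025 for S100A4, 1280 for S100P and 1543 for S100A10. S100A13, the only tested member with a negative log2 fold change, is the longest of the tested members, at 2216 bases. Genes of 2000 to 4000 bases had a median log2 fold change of 0.06. The part of gene length in the members' directions was not tested. With offsets that follow gene length in each library (a choice made after seeing the data), the log2 fold change was 3.13 ± 0.37 for S100A9 (SE, adjusted p = 0.019), with 0.291% of all genes called higher. With the same offsets it was 0.60 ± 0.09 for S100P (adjusted p = 0.058) and 0.46 ± 0.08 for S100A4 (adjusted p = 0.075). It was 0.63 ± 0.19 for S100A10 (adjusted p = 0.28) and 0.26 for both S100A11 (adjusted p = 0.21) and S100A6 (adjusted p = 0.28). When ethacrynic acid replicate 3 was left out as well, S100P passed (0.65 ± 0.10, adjusted p = 0.035, with 0.557% of all genes called higher) and S100A4 was at 0.50 ± 0.09 (adjusted p = 0.054). S100A11 and S100A6 then stood at 0.22 and 0.20. The median of the 8 members was 0.53 with the offsets and 0.52 without ethacrynic acid replicate 1, the library highest for most of them.

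Of 12 other listed genes, the S100 binding partner S100PBP among them, 8 were tested. None passed in edgeR, and 2 (S100A14 and S100PBP) had an unadjusted p under 0.05, against 11.1% of all tested genes. DESeq2 called 1, S100A14 (adjusted p = 0.042), where it called 2.05% of all tested genes as higher. S100A14 and S100A16, 2 family members known from epithelia, were high in a single library. S100A14 was at 0.868, 1.42 and 0.669 CPM with DMSO and 1.39, 1.67 and 10.9 CPM with ethacrynic acid. S100A16 was at 1.13, 0.652 and 0.474 CPM with DMSO and 0.737, 0.836 and 8.84 CPM with ethacrynic acid. Both followed the summed epithelial genes, which were 7.81 times as high in ethacrynic acid replicate 3 as in the mean of replicates 1 and 2, where S100A14 was 7.11 times and S100A16 11.2 times as high. The part of epithelial genes in these values was not tested. Without that library their log2 fold changes went from 2.24 to 0.63 and from 2.21 to 0.06. The same ratio was 1.27 for S100A10, 0.886 for S100A6, 0.833 for S100A11, 0.741 for S100A9, 0.725 for S100A4 and 0.721 for S100P. The 4 leading members and S100A9 were highest in ethacrynic acid replicate 1, the library with high short genes, which lowers this ratio. Against replicate 2 alone, replicate 3 was higher for S100A6 (122.5 against 114.5 CPM) and S100A9 (9.64 against 9.22 CPM). It was lower for S100A4, S100A11 and S100P. An epithelial part in the levels of these genes was not tested. Of the rest, S100A1, a heart and muscle member, was at 5.11 ± 0.785 and 3.89 ± 0.598 CPM, and S100B, a glial member, at 3.86 ± 0.924 and 5.09 ± 0.923 CPM (SD, n = 3 each). S100A2, S100A3 and S100A5 had means of at most 0.525 CPM in both groups. S100A7 had 4 counts in 1 library and S100A7A, S100A7L2 and S100G had none. S100PBP, which encodes a nuclear protein that binds S100P, was at 63.2 ± 2.77 and 54.1 ± 3.38 CPM, with groups that did not overlap (log2 difference -0.22 ± 0.09 SE, adjusted p = 0.42).

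**Figure D4:**
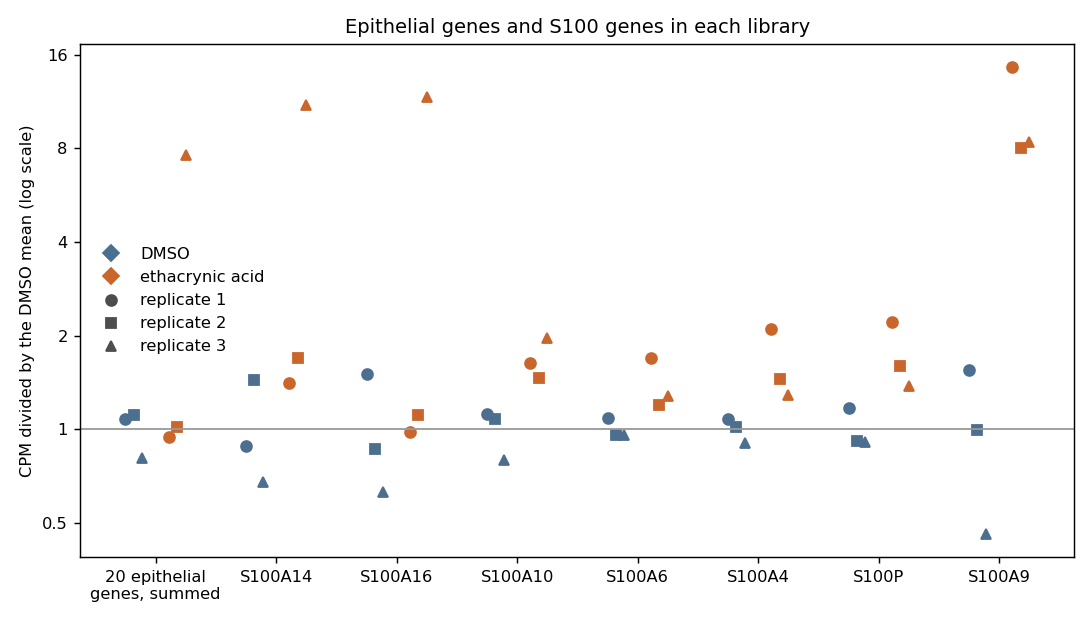
CPM in each library divided by the DMSO mean, on a log scale, for the sum of 20 epithelial marker genes and for 7 S100 genes. The epithelial sum, S100A14 and S100A16 are high in ethacrynic acid replicate 3 alone, whereas S100A9 is high in all 3 ethacrynic acid libraries.

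Receptors and partners of S100 proteins were read from the same fit. Of 28 listed genes 24 were tested, 1 rose and none fell, against 0.229% and 0.0357% of all tested genes. The median log2 fold change of the 24 was 0.17. At an unadjusted p under 0.05 stood 6 of them, against 11.1% of all tested genes. S100PBP, given above with the other S100 genes, is on this list too and is among these 6. The gene that rose was PLAUR, the urokinase receptor of the plasminogen system that S100A10 takes part in, from 33.5 ± 4.08 to 79.8 ± 13.96 CPM (SD, n = 3 each), by 1.25 ± 0.15 on the log2 scale (SE, adjusted p = 0.023). Leaving out any 1 control library or ethacrynic acid replicate 2 ended its call, with adjusted p values reaching 0.16 and log2 fold changes of at least 1.16. Leaving out ethacrynic acid replicate 1 or 3 did not end it, and no filter on low counts did (adjusted p = 0.092). The receptors did not pass. AGER, which encodes RAGE, was at 11.7 ± 2.11 and 9.13 ± 1.84 CPM (log2 difference -0.36 ± 0.20 SE, adjusted p = 0.54). TLR4 was at 32.9 ± 3.77 and 37.4 ± 5.81 CPM (0.18 ± 0.14, adjusted p = 0.65), and another protein-coding gene model shares 558 bases of its exons on the same strand. ANXA1, the partner of S100A11, was at 18.2 ± 7.75 and 26.7 ± 1.82 CPM (0.55 ± 0.30, adjusted p = 0.52), and 1 control library decided much of that value, which was 0.25 when control replicate 3 was left out and 0.84 when control replicate 1 was. TLR4 and AGER also ranged widely when 1 library was left out, from 0.06 to 0.29 and from -0.52 to -0.22. DESeq2 called 3 of the list as higher, PLAUR, ANXA2 and ANXA5, the last named after its values were seen. Of all tested genes it called 2.05% as higher.

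Known regulators of calprotectin genes were tested for 12 of 13 listed genes, and none passed in the edgeR test over all genes. At an unadjusted p under 0.05 stood 3 of them, against 11.1% of all tested genes. The median log2 fold change of the 12 was 0.30. The 4 with the smallest p were JUN, CEBPB, JUNB and CEBPA. JUN, an AP-1 subunit, was at 27.5 ± 2.05 and 37.4 ± 1.52 CPM (SD, n = 3 each), a log2 difference of 0.44 ± 0.10 (SE, adjusted p = 0.19). CEBPB, a C/EBP factor of macrophages, was at 93.0 ± 5.09 and 114 ± 5.14 CPM (0.30 ± 0.09, adjusted p = 0.30). DESeq2 called these 2 as higher (adjusted p = 0.0023 and 0.030), where it called 2.05% of all tested genes as higher. JUNB and CEBPA had log2 fold changes of 0.35 ± 0.13 and 0.30 ± 0.14. CEBPE, the C/EBP factor of late granulocytes, was at 13.9 ± 0.915 and 16.8 ± 4.44 CPM (0.27 ± 0.19, adjusted p = 0.62). The values of CEBPE and CEBPA depended on the 2 libraries that stood apart. Leaving out ethacrynic acid replicate 1 gave 0.07 and 0.17, and leaving out replicate 3 gave 0.44 and 0.41. With length-dependent offsets CEBPB was at 0.19 and JUN at 0.40. Antisense genes share exon bases with CEBPA and CEBPB and HOOK2 with JUNB, which leaves their counts uncertain.

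Myeloid and granulocyte markers, listed to check the cell type, were also read beside S100A9. In the edgeR test with TMM, group as the only term and all 6 libraries none of 12 tested myeloid and 6 tested granulocyte markers passed. At an unadjusted p under 0.05 stood 6 and 1 of them, against 11.1% of all tested genes. DESeq2 called 3 and 1 as higher, where it called 2.05% of all tested genes as higher. The lists did not move one way: 9 myeloid markers had a positive and 3 a negative log2 fold change (median 0.29), and 2 granulocyte markers a positive and 4 a negative one (median -0.24). PTPRC was lower in every ethacrynic acid library than in any control library, at 208 ± 22.7 and 147 ± 29.4 CPM (log2 difference -0.50 ± 0.16 SE, adjusted p = 0.35). MPO, the myeloperoxidase gene on both lists, was at 2.94 ± 0.469 and 2.22 ± 0.428 CPM (-0.41 ± 0.25, adjusted p = 0.57). The markers closest to a call were CD68, a lysosomal gene, LYZ, the lysozyme gene, and MMP9, a gelatinase gene, with adjusted p values of 0.059, 0.11 and 0.097. Without ethacrynic acid replicate 3 all 3 passed (adjusted p = 0.0028, 0.036 and 0.028), where 0.592% of all tested genes were called higher. With the stricter filter they passed as well (0.02, 0.049 and 0.04), where 0.736% were. CD68 also passed with total count scaling (adjusted p = 0.038), counts divided by 4 (0.037), length-dependent offsets (0.017) and without ethacrynic acid replicate 1 (0.048). In these fits 0.214%, 0.382%, 0.291% and 0.253% of all tested genes were called higher. With all libraries LYZ was at 211 ± 80.8 and 656 ± 202 CPM, CD68 at 72.7 ± 3.76 and 149 ± 31.5 CPM, and MMP9 at 3.88 ± 0.678 and 10.4 ± 3.13 CPM (SD, n = 3 each). These 3, PTPRC and MPO were named for their values. Antisense transcripts overlap exons of all 3, and a noncoding gene on the same strand covers 1789 of the 2189 exon bases of CD68.

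The genes whose levels followed S100A9 most closely over the 6 libraries were the pseudogene MTX1P1 and the autophagy gene MAP1LC3B (Pearson r of log2 CPM 0.994 each) and the polyamine-acetylating enzyme gene SAT1 (r = 0.991). SAT1 rose from a mean of 64.4 to 133 CPM (adjusted p = 0.013), and the other two did not pass. Among those for S100A8 were PIP4K2C and PP7080, with r of 0.995 and 0.987, and neither passed. These r values describe 6 libraries that also share the treatment and the length trend.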

How the data were processed

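The 10 members and all lists were chosen with earlier results of these data known. Total RNA was sequenced after a SMARTER mRNA-seq preparation, per the labels' protocols. Per the submitters' processing notes, the tools were fastp, HISAT2, StringTie 1.3.4d and edgeR and the build GRCh38, without their roles. The authors deposited whole-number counts per Ensembl gene ID, which are not scaled between libraries. The counter, its strand option and its annotation were not given in the sources used here. Symbols were matched for 61757 of 61806 IDs. Exon lengths and coordinates are from GENCODE 29 (58254 IDs).

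A filter (filterByExpr, at least 10 counts, total of 15) left 19611 genes, which were scaled by TMM and tested with edgeR 4.0.16 in R 4.3.3 (quasi-likelihood F-test, group as the only term, two-sided, Benjamini-Hochberg over these genes, called under 0.05). The SE was taken as the size of the log2 fold change over the root of its F statistic. CPM are counts per 1000000 of TMM-scaled library size. The spread between libraries was 29.1% for a typical gene (common dispersion 0.0845). Floors of 3 counts cover counting error only. Alternatives were other scalings (RLE, upper-quartile, total count), other filters (none, or 5 CPM in 3 libraries), DESeq2 1.42.0, limma-voom (limma 3.58.1), the replicate number as a term, counts divided by 4, a threshold of 0.01 and each library left out. Length-dependent offsets (loess of log2 CPM deviations on log10 exon length) were chosen after seeing the data.

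Named by rule were all members, all tested family genes, up to 4 called genes of the partner and the regulator list (or the 4 with the smallest p), ANXA2, ANXA1, TLR4, AGER, CEBPB and CEBPE, and the 3 genes of at least 1 CPM most correlated with S100A9 and S100A8. One gene that this rule names is not reported here. Fibroblast, endothelial, lymphoid and erythroid marker lists were also read, and none of the 2, 0, 4 and 0 genes tested in them passed the edgeR test. Of the fibroblast and lymphoid genes 0 and 1 had an unadjusted p under 0.05, against 11.1% of all tested genes. DESeq2 called 0 and 1 of them, where it called 2.05% of all tested genes as higher.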

Additional observations from a re-analysis of the deposited data

How the results depend on the processing

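The number of the 10 S100 members called was 1, and it was 1 also under RLE, upper-quartile or total count scaling, a stricter filter, limma-voom, counts divided by 4 and length-dependent offsets. It was 0 without a filter on low counts and at an adjusted p under 0.01, 6 with DESeq2 and 2 with length-dependent offsets without ethacrynic acid replicate 3. Leaving out each library gave 0 to 1 members. The 8 tested members kept their direction in every alternative that could test them. S100A8 fell under the stricter filter and under counts divided by 4, so that those had no value for it.

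All genes called were 52, against 14 without a filter, 96 with a stricter filter, 614 with DESeq2, 9 at an adjusted p under 0.01, 4 to 148 when each library was left out, and 141 with length-dependent offsets without ethacrynic acid replicate 3. DESeq2 called 1 other S100 gene, 3 receptors and partners, 2 regulators, 1 epithelial marker (S100A14), 3 myeloid markers and 1 granulocyte marker. The edgeR test had called 1 receptor or partner and 0 in each of the other lists. It called more without ethacrynic acid replicate 3, 2 receptors and partners, 2 myeloid markers and 1 granulocyte marker. The stricter filter also called 2 myeloid markers and 1 granulocyte marker. Total count scaling, counts divided by 4 and length-dependent offsets called 1 myeloid marker each. Of all tested genes 0.592% were called higher without ethacrynic acid replicate 3 and 0.736% with the stricter filter. With total count scaling, counts divided by 4 and length-dependent offsets these shares were 0.214%, 0.382% and 0.291%. The median of all log2 fold changes was -0.08 under total count scaling, and the members' median was 0.64 there against 0.72.

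The replicate numbers were not taken as pairs, because no label ties libraries together by number. The same-numbered libraries of both groups had deviations that correlated at 0.16, 0.06 and 0.09, low values, but every library correlated best with its own number. With the replicate block 3 members (S100A4, S100A9 and S100P) and 355 genes in all (1.81% of those tested) were called. It also called the partners PLAUR, ANXA2 and ANXA5 and the markers CD68, LYZ and MMP9 as higher, and PTPRC as lower.

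Low genes changed sign. S100A2, at -0.04, was 0.05 with limma-voom, 0.03 with the replicate block and -0.33 to 0.25 when each library was left out. S100A5, at 0.09, was -0.49 to 0.57 when each was left out, -0.07 with length-dependent offsets and -0.15 with those without ethacrynic acid replicate 3, where S100A16 was -0.12. The cause was not tested. Depth limits S100A8, S100A12, S100A2, S100A3 and S100A5, which had few counts.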
